A study of Mus musculus with 8 samples.

Results

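The 39 genes described here are interferon-stimulated genes (ISGs), listed by symbol and looked up by their Ensembl identifiers in a table of 25466 genes measured by RNA-seq in mouse medullary thymic epithelial cells (mTECs). All 39 had a row in the table and all 39 passed the filter on low counts, among 17006 genes tested. The cells came from thymi of wild-type BL6N6 mice aged 4 to 6 weeks, with no treatment, and were sorted as live CD45neg Epcampos CDR1neg mTECs and then by surface Tspan8 and MHCII. Tspan8 is a tetraspanin that serves as an example of a tissue-restricted antigen, and MHCII is a marker of mTEC maturation, although late mTECs lose it again and share the MHCIIlo gate with immature cells. The 4 subsets were Tspan8negMHCIIlo, Tspan8negMHCIIhi, Tspan8posMHCIIhi and Tspan8posMHCIIlo, with 2 libraries each. The labels call the replicates biological without tying them to animals, so p-values measure the spread between these libraries. As each library is a bulk sample, fewer cells expressing a gene and less RNA of it per cell cannot be told apart.

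Interferons are secreted proteins that warn cells of infection. Interferon alpha and beta act through the receptor of Ifnar1 and Ifnar2, interferon lambda through Ifnlr1 and Il10rb, and interferon gamma through Ifngr1 and Ifngr2. Jak kinases at the alpha, beta and lambda receptors activate the complex ISGF3, of which Stat2 and Irf9 are subunits and which binds the interferon-stimulated response element (ISRE) of ISG promoters, whereas promoters that respond to interferon gamma carry the gamma-activated sequence (GAS). Medullary epithelial cells are known to express interferons and ISGs also without infection. The products of the 39 genes include sensors of foreign RNA and DNA and proteins that degrade RNA or block its translation. Others trap virus particles, attack the vacuoles of intracellular pathogens or act as transcription factors.

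Promoter sequences are shown for 5 genes because they carried the elements through which ISGs are known to be induced and yet differed in expression pattern. RefSeq promoter windows of GRCm38.p6, from 250 bases before to 50 bases after the start, were found for 30 of the 39 genes. The letters GAAANNGAA, the core of the ISRE, were searched on both strands, with overlapping matches counted. They stood in the windows of 19 of these 30 genes (63.3%), against 9.76% of the 27025 genes with a window. A stricter form, the same letters followed by 1 more A, was found in 56.7% of the 30 genes and in 3.99% of all. The letters TTCNNNGAA, the core of the GAS, were found in 11 of the 30 genes (36.7%) and in 9.55% of all. The 250 bases before the start follow, read 5′ to 3′ on the strand of the gene, with ISRE core matches in capitals in the first 4 and GAS core matches in capitals in Irf8.
Isg15 (chr4:156200819-156201068, reverse strand): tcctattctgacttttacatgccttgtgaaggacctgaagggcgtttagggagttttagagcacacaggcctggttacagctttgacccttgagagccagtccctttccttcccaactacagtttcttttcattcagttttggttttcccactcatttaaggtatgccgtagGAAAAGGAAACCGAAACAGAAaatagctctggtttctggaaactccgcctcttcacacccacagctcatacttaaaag
Stat2 (chr10:128270248-128270497, forward strand): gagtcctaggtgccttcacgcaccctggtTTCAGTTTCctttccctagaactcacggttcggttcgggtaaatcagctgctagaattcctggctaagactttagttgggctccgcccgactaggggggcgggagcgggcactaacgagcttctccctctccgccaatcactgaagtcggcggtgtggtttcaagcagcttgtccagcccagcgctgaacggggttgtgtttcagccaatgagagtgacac
Ifit3 (chr19:34583279-34583528, forward strand): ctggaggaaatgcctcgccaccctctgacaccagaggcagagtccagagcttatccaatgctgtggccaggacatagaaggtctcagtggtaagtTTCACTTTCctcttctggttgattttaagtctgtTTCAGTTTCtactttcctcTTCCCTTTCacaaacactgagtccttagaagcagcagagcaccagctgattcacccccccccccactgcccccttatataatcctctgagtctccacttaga
Ifit1 (chr19:34640639-34640888, forward strand): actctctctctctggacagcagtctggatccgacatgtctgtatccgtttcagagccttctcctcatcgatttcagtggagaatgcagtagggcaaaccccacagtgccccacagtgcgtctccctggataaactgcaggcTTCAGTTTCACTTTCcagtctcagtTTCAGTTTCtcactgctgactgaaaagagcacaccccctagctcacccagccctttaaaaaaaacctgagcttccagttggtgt
Irf8 (chr8:120736108-120736357, forward strand): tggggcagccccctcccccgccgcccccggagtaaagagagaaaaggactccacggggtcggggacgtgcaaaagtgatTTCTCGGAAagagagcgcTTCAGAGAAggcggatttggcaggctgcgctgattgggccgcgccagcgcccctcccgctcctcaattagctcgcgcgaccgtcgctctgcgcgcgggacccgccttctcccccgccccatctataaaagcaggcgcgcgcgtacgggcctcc

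Isg15 held 3 overlapping ISRE matches, which began 66 to 78 bases before the start. Ifit3 and Ifit1 held 3 matches each, and Stat2 held 1, which began 221 bases before the start. Irf8 held no ISRE match and 2 GAS matches. A match is a stretch of letters and does not show that a factor bound there.

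Library totals ranged from 1941518 to 7783841 estimated counts with a median of 4857083.5, so the smallest library, replicate 1 of Tspan8posMHCIIlo, gave the least precise values. Levels are given as CPM, counts scaled to library size after normalization by the trimmed mean of M values (TMM). Differences are log2 fold changes with their standard error (SE) from edgeR's quasi-likelihood test, and a gene was called where the Benjamini-Hochberg adjusted p lay under 0.01 and the log2 fold change was 1 or more in size. Tspan8 followed the gates, with 3.65 to 14.6 CPM in the Tspan8neg libraries, 404 and 352 in Tspan8posMHCIIhi and 347 and 366 in Tspan8posMHCIIlo. H2-Ab1, which encodes an MHCII chain, was higher in MHCIIhi than in MHCIIlo cells within each Tspan8 level. It was at 2074 and 1700 CPM in Tspan8negMHCIIlo, 4988 and 5098 in Tspan8negMHCIIhi, 2431 and 2619 in Tspan8posMHCIIhi and 518 and 489 in Tspan8posMHCIIlo. The Tspan8 contrasts within an MHCII gate were therefore not matched for the level of H2-Ab1. Thymocyte markers, as the sum of 6 genes, came to 336 and 933 CPM in Tspan8negMHCIIlo and to between 62.8 and 196 CPM in the other subsets.

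The ISGs were lowest in Tspan8negMHCIIhi, the subset richest in Aire, and highest in Tspan8negMHCIIlo. Of the 39 genes, 27 had their lowest mean in Tspan8negMHCIIhi, which held the lowest mean of 28.4% of all genes tested, and 24 had their highest in Tspan8negMHCIIlo, as did 30.6% of all genes. Their summed level was 2918 and 2947 CPM in the replicates of Tspan8negMHCIIhi, 3645 and 3696 in Tspan8posMHCIIhi, 4290 and 4127 in Tspan8posMHCIIlo, and 5752 and 4057 in Tspan8negMHCIIlo. The sums of Tspan8negMHCIIhi lay below those of every other library, whereas the sums of Tspan8negMHCIIlo spanned those of Tspan8posMHCIIlo. That spread was shared by nearly all members, as 38 of the 39 were higher in replicate 1 than in replicate 2 of Tspan8negMHCIIlo, against 45.5% of all genes, with a median log2 ratio of 0.43. The thymocyte markers went the opposite way, with 336 CPM in replicate 1 and 933 in replicate 2, and their part in this spread was not tested. The sum of 5 markers of cortical thymic epithelial cells was also set apart in Tspan8negMHCIIhi, at 784 and 910 CPM against 115 to 453 in the other libraries, with Ccl25 and Tbata highest there and Psmb11 and Prss16 not, and its part in the ISG levels was not tested.

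**Figure D1:**
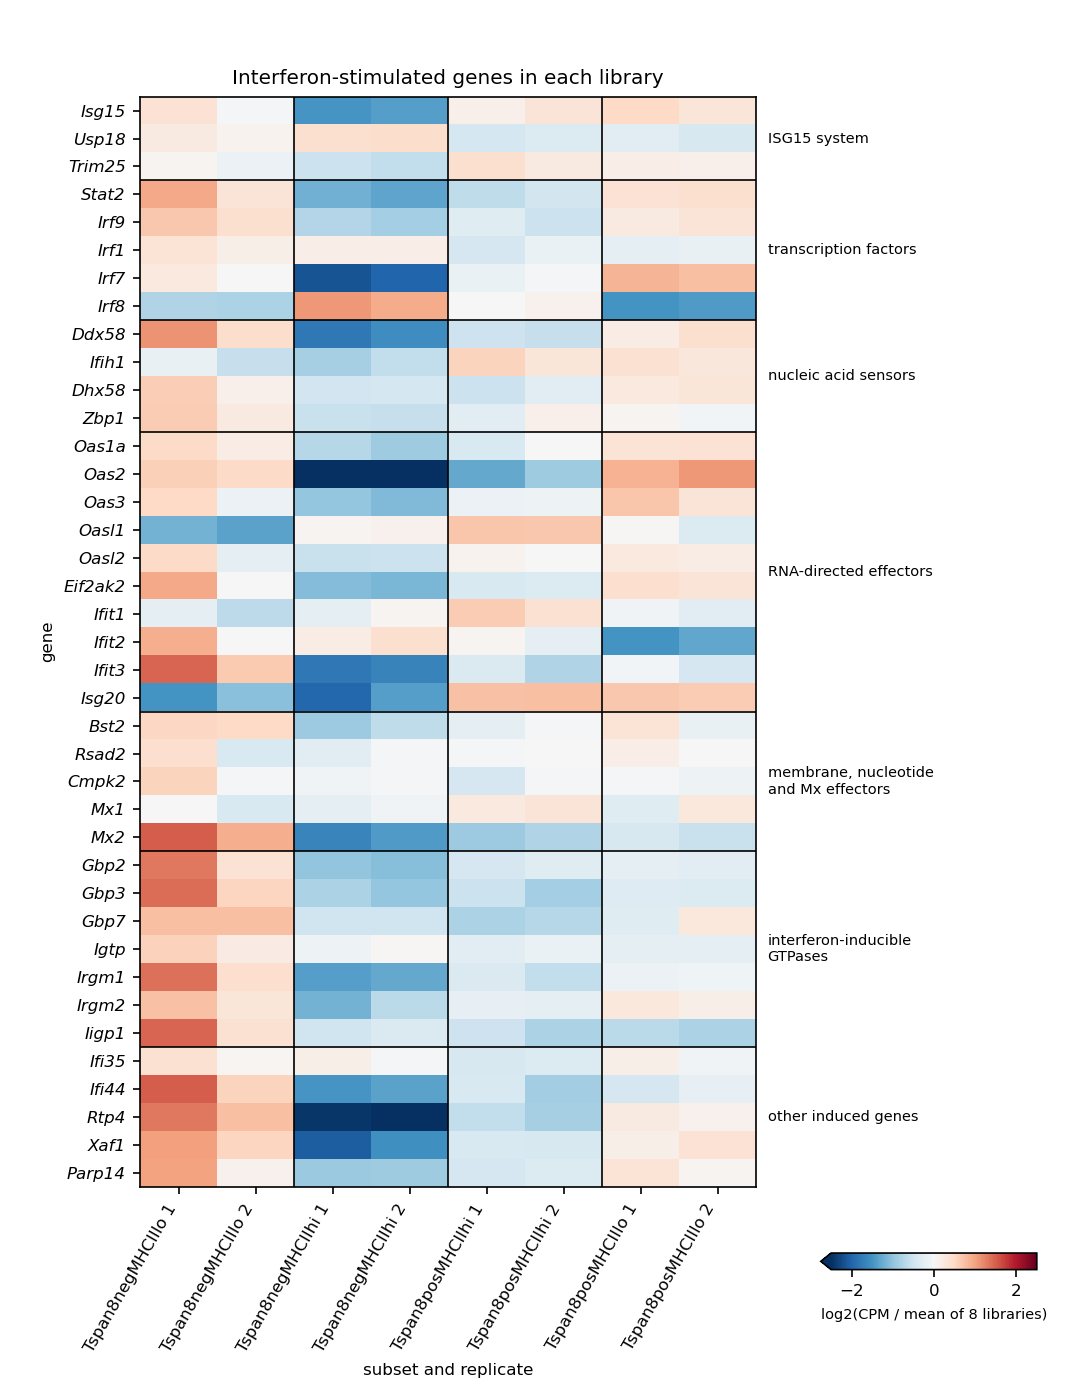
Heat map of the 39 genes (rows, grouped by role) in the 8 libraries (columns, labelled by subset and replicate). Colour shows the log2 ratio of CPM to the mean of the gene over all 8 libraries, with red above and blue below it. The columns of Tspan8negMHCIIhi are mostly blue, those of Tspan8negMHCIIlo mostly red and deeper in replicate 1, and Irf8 runs the other way.

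Between the MHCII levels of Tspan8neg mTECs, 23 of the 39 genes were called lower and 2 higher in Tspan8negMHCIIhi than in Tspan8negMHCIIlo, where 9.67% of all genes tested were called lower and 13.1% higher. The median log2 fold change of the 39 was -1.25, against -0.04 for all genes. The counts were 19 lower and 2 higher without replicate 1 of Tspan8negMHCIIlo, and 25 lower and 2 higher without its replicate 2. Zbp1, Oas3, Oas1a, Iigp1 and Gbp7 were those whose call was lost when a single library was left out. Called lower were 3 of the 5 transcription factors, 6 of the 7 inducible GTPases and 5 of the 10 effectors directed at RNA, and Irf8 and Oasl1 were those called higher. Of the 19 genes with an ISRE core in the window 14 were called lower, with a median of -1.42, and of the 11 without it 3 were called lower and 2 higher, with a median of -0.34. The split by the GAS core ran the other way. Of the 11 genes with it 5 were called lower and 1 higher, with a median of -0.45. Of the 19 without it 12 were called lower and 1 higher, with a median of -1.59. Members without a window fell in neither group of either split. Among them Oas2, Rtp4, Mx2, Iigp1, Parp14 and Zbp1 were called lower, and Usp18, Dhx58 and Mx1 were not called. Oas2 had the largest fall of the 39. Differences between the groups split by motif were not tested.

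Between the MHCII levels of Tspan8pos mTECs, Irf8 alone was called higher and Oas2 alone lower in MHCIIhi cells among the 39, against 4.59% higher and 2.62% lower of all genes. The median was -0.28, with 29 negative and 10 positive estimates. Dropping the limit on the fold change gave 2 higher and 4 lower, with no share of all genes given at that limit. The plot of MHCII fold changes sets both contrasts side by side.

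**Figure D2:**
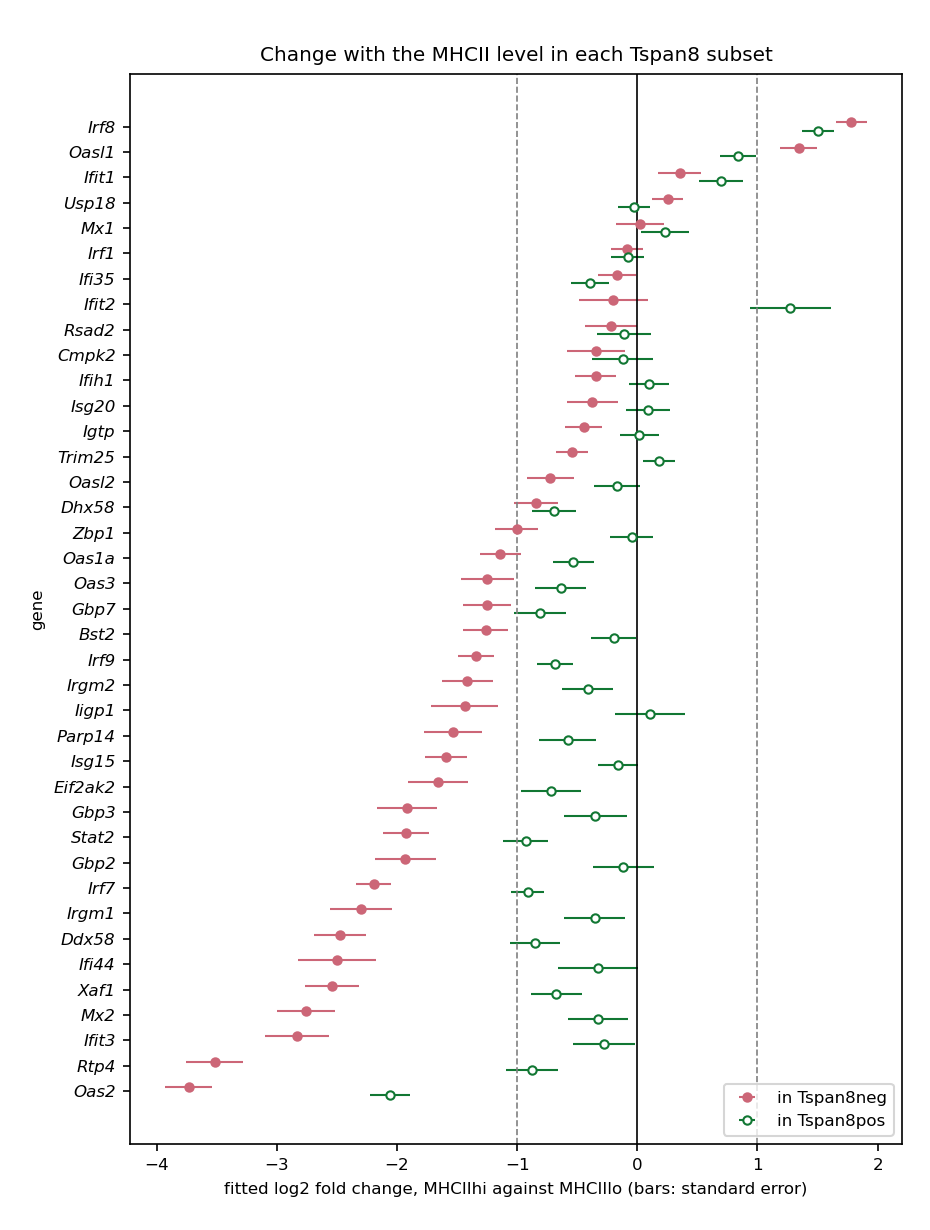
Fitted log2 fold change of MHCIIhi against MHCIIlo mTECs (x axis) for each of the 39 genes (y axis), within Tspan8neg (filled points) and within Tspan8pos mTECs (open points), with bars of 1 SE and dashed lines at the fold limits. Most filled points lie left of the lower limit, down to -3.73 for Oas2, and most open points lie between the limits.

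Between Tspan8pos and Tspan8neg mTECs, the median of the ISGs was positive in MHCIIhi and negative in MHCIIlo cells. Of the 39 estimates, 30 were positive and 9 negative in MHCIIhi cells, and 13 were positive and 26 negative in MHCIIlo cells. Single members could keep their sign, as Irf7 and Isg20 were positive at both levels. In MHCIIhi cells 9 of the 39 were called higher in Tspan8pos and none lower, against 11.0% higher and 7.45% lower of all genes, and the median was 0.62. With edgeR at an unadjusted p under 0.05, 27 were higher and 4 lower, and DESeq2 called 9 higher and 1 lower, Irf8. The shares of all genes at these limits are not given, so those counts have no background beside them. In MHCIIlo cells 2 of the 39 were called higher and 8 lower in Tspan8pos, against 12.1% and 9.34% of all genes. The median of the 39 was -0.38 there. The MHCIIhi count was 5 higher without replicate 1 of Tspan8negMHCIIhi. The MHCIIlo counts were 2 higher and 3 lower without replicate 1 of Tspan8negMHCIIlo, 1 higher and 4 lower without replicate 1 of Tspan8posMHCIIlo, and 2 higher and 1 lower without its replicate 2. The share called lower in MHCIIlo cells (20.5%) and the share called higher in MHCIIhi cells (23.1%) were each above the background, and the share called higher in MHCIIlo cells (5.13%) was below it.

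The interaction tests whether the Tspan8 fold change differs between the MHCII levels, and positive values mean a higher Tspan8pos to Tspan8neg ratio in MHCIIhi than in MHCIIlo cells. It was called positive for 10 of the 39 genes and negative for none, against 2.24% and 2.36% of all genes. These 10 were Rtp4, Ifit3, Mx2, Irgm1, Xaf1, Gbp2, Oas2, Ddx58, Isg15 and Irf7, with values from 1.28 for Irf7 to 2.64 for Rtp4. With edgeR at an unadjusted p under 0.05, 23 were positive and 1 negative, and DESeq2 called 13 positive and 0 negative. No share of all genes is given at these other limits. The median over the 39 was 0.94, against 0.05 for all genes, and 35 estimates were positive. Without single libraries the median over the 39 lay from 0.65 to 1.11. The share of all genes called in these fits is not given. The number of members called depended on single libraries. It was 12 without replicate 1 and 19 without replicate 2 of Tspan8negMHCIIlo, 1 and 2 without replicates 1 and 2 of Tspan8negMHCIIhi, 3 and 2 without those of Tspan8posMHCIIhi, and 3 and 1 without those of Tspan8posMHCIIlo, with no negative call in any of these fits. Rtp4 was the gene called in each of these fits.

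**Figure D3:**
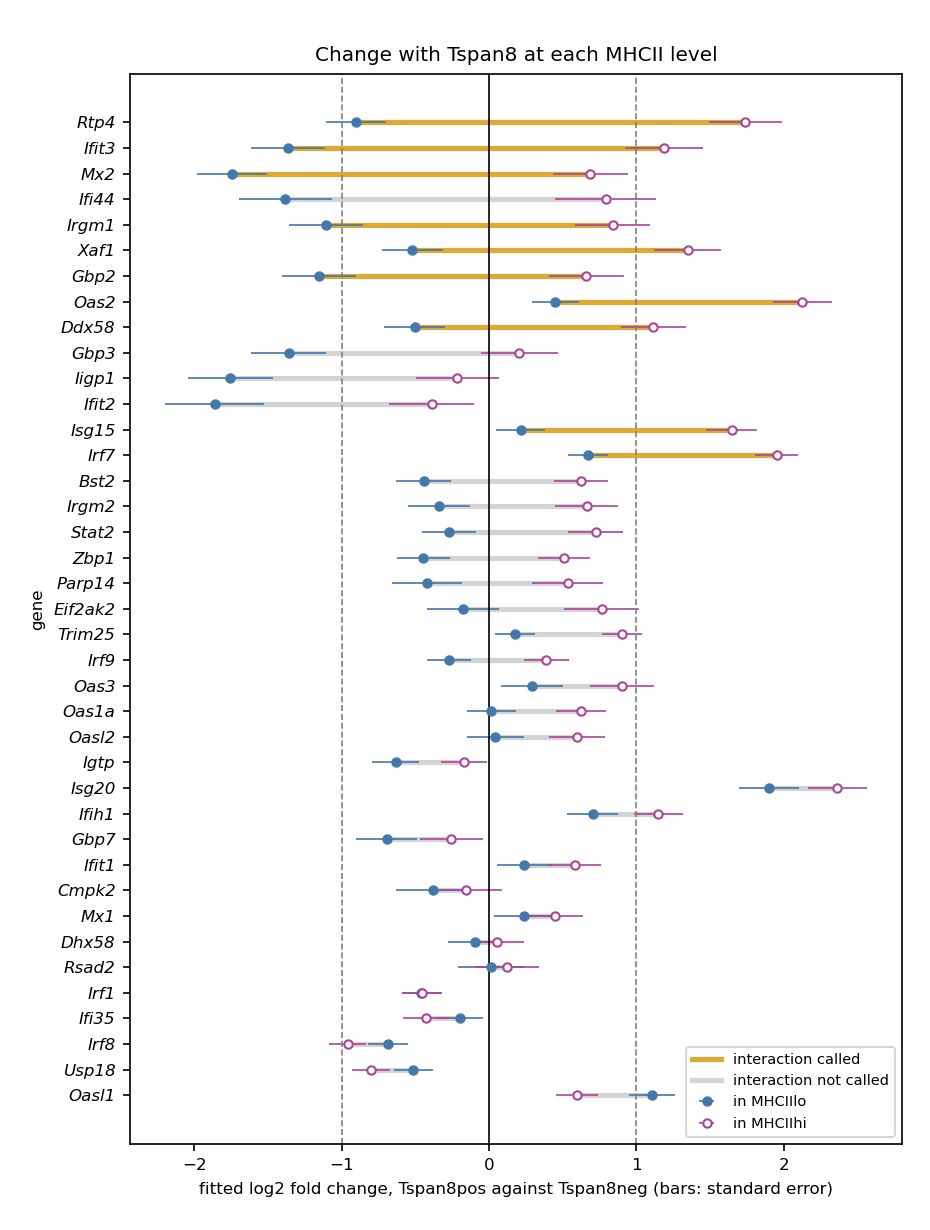
Fitted log2 fold change of Tspan8pos against Tspan8neg mTECs (x axis) for the 39 genes (y axis, ordered by the interaction), in MHCIIlo (filled points) and MHCIIhi cells (open points), with bars of 1 SE, dashed lines at the fold limits, and a connecting line that is gold where the interaction was called. For all 10 genes with a gold line the MHCIIhi point lies to the right of the MHCIIlo point.

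Pairs of subsets that differ in both markers filled in the order of levels. Tspan8posMHCIIlo had 18 of the 39 genes called higher and 2 lower than Tspan8negMHCIIhi, against 14.7% and 14.6% of all genes, and 11 higher and 1 lower without replicate 2 of Tspan8negMHCIIhi. Tspan8posMHCIIhi had 2 called higher and 14 lower than Tspan8negMHCIIlo, against 14.4% and 10.3% of all genes.

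The ISG15 system attaches a small ubiquitin-like protein to other proteins. Isg15, the modifier itself, was at 109 and 82.3 CPM in the replicates of Tspan8negMHCIIlo, 30.6 and 32.6 in Tspan8negMHCIIhi, 91.8 and 106 in Tspan8posMHCIIhi and 119 and 104 in Tspan8posMHCIIlo. Only Tspan8negMHCIIhi stood apart, and the other 3 subsets overlapped. Isg15 was lower in Tspan8negMHCIIhi than in Tspan8negMHCIIlo (log2 fold change -1.59 ± 0.17 (SE), adjusted p = 4.14e-05) and than in Tspan8posMHCIIhi (1.65 ± 0.17 in favour of Tspan8pos, adjusted p = 2.74e-05). Usp18, the protease that removes ISG15 and restrains the interferon alpha and beta receptor, did not follow. It was at 154 and 140 CPM in Tspan8negMHCIIlo, 173 and 178 in Tspan8negMHCIIhi, 97.2 and 105 in Tspan8posMHCIIhi and 108 and 99.2 in Tspan8posMHCIIlo, so that both Tspan8neg subsets lay above both Tspan8pos subsets. Its Tspan8 differences of -0.51 ± 0.13 in MHCIIlo and -0.80 ± 0.13 in MHCIIhi cells passed the p limit and not the fold limit. Trim25, a ligase that acts on the RNA sensor RIG-I, was likewise under the fold limit in every contrast, with its highest estimate of 0.90 ± 0.13 for Tspan8 in MHCIIhi cells.

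The transcription factors included the ISGF3 subunits. Stat2 was at 363 and 238 CPM in Tspan8negMHCIIlo, 82.1 and 76.3 in Tspan8negMHCIIhi, 122 and 139 in Tspan8posMHCIIhi and 245 and 252 in Tspan8posMHCIIlo. Both MHCIIlo subsets therefore lay above both MHCIIhi subsets. The MHCII difference was -1.92 ± 0.19 in Tspan8neg cells (adjusted p = 2.12e-05) and -0.93 ± 0.19 in Tspan8pos cells (adjusted p = 0.00585), of which the second was under the fold limit. Irf9, the subunit that binds DNA, kept the same order with 181 and 149, 67.6 and 62.0, 91.4 and 78.0, and 132 and 140 CPM in the same sequence of subsets, and differed by -1.34 ± 0.15 between the MHCII levels of Tspan8neg cells. Irf9 shares exon sequence with Rnf31 on the same strand, so its counts are uncertain.

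Irf7, an activator of the interferon alpha genes, was at 276 and 233 CPM in Tspan8negMHCIIlo, 52.4 and 58.7 in Tspan8negMHCIIhi, 207 and 224 in Tspan8posMHCIIhi and 420 and 392 in Tspan8posMHCIIlo. It was the member of this group with the widest range, and its subsets did not overlap. The Tspan8 difference was 1.95 ± 0.14 in MHCIIhi (adjusted p = 2.22e-06) and 0.67 ± 0.14 in MHCIIlo cells, and the interaction was 1.28 ± 0.20 (adjusted p = 0.00244). The Irf7 interaction was not called when any single library of the 3 subsets other than Tspan8negMHCIIlo was left out, with adjusted p from 0.0105 to 0.0236. Irf1, a factor responsive to interferon gamma, was at 520 and 453, 460 and 458, 305 and 364, and 348 and 360 CPM in the same sequence of subsets, and was called in none of the 4 contrasts. Its Tspan8neg libraries all lay above its Tspan8pos libraries, with estimates for Tspan8 of -0.46 at both MHCII levels (adjusted p = 0.0186 in MHCIIlo and 0.0198 in MHCIIhi cells). Of the 39 genes 8 overlap exons of genes on the opposite strand, namely Irf7, Irf1, Usp18, Dhx58, Oasl1, Eif2ak2, Gbp2 and Ifi35, and their counts are uncertain because use of the strand in counting is not settled.

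Irf8, a factor of dendritic, B and myeloid cells, ran against most of the other members. It was at 120 and 117 CPM in Tspan8negMHCIIlo, 431 and 384 in Tspan8negMHCIIhi, 202 and 217 in Tspan8posMHCIIhi and 71.5 and 75.6 in Tspan8posMHCIIlo, with no overlap between subsets. Irf8 rose with MHCII in Tspan8neg (1.78 ± 0.13, adjusted p = 3.25e-06) and in Tspan8pos cells (1.50 ± 0.13, adjusted p = 3.46e-05). Markers of conventional dendritic cells, as the sum of 6 genes, were also highest in Tspan8negMHCIIhi, at 244 to 245 CPM against 86.2 to 104 in Tspan8negMHCIIlo, 90.0 to 90.6 in Tspan8posMHCIIhi and 47.8 to 50.1 in Tspan8posMHCIIlo, with Clec9a at or near 0. The sum of 6 macrophage markers was 106 to 112 CPM in Tspan8negMHCIIhi, 83.2 to 103 in Tspan8posMHCIIhi, 51.5 to 55.5 in Tspan8posMHCIIlo and 19.1 to 40.6 in Tspan8negMHCIIlo. The sum of 5 markers of plasmacytoid dendritic cells was 479 to 514 CPM in Tspan8negMHCIIhi and 201 to 355 in the other subsets. That sum includes Irf8 itself and Bst2, so it is not separate from the Irf8 level. Siglech, a defining marker of plasmacytoid dendritic cells, did not exceed 2.83 CPM in any library. The sum of 4 B cell markers did not follow Irf8, with 31.8 to 40.8 CPM in Tspan8negMHCIIhi and 16.9 to 43.4 in Tspan8negMHCIIlo. The part of these cell types in the Irf8 level was not tested.

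**Figure D4:**
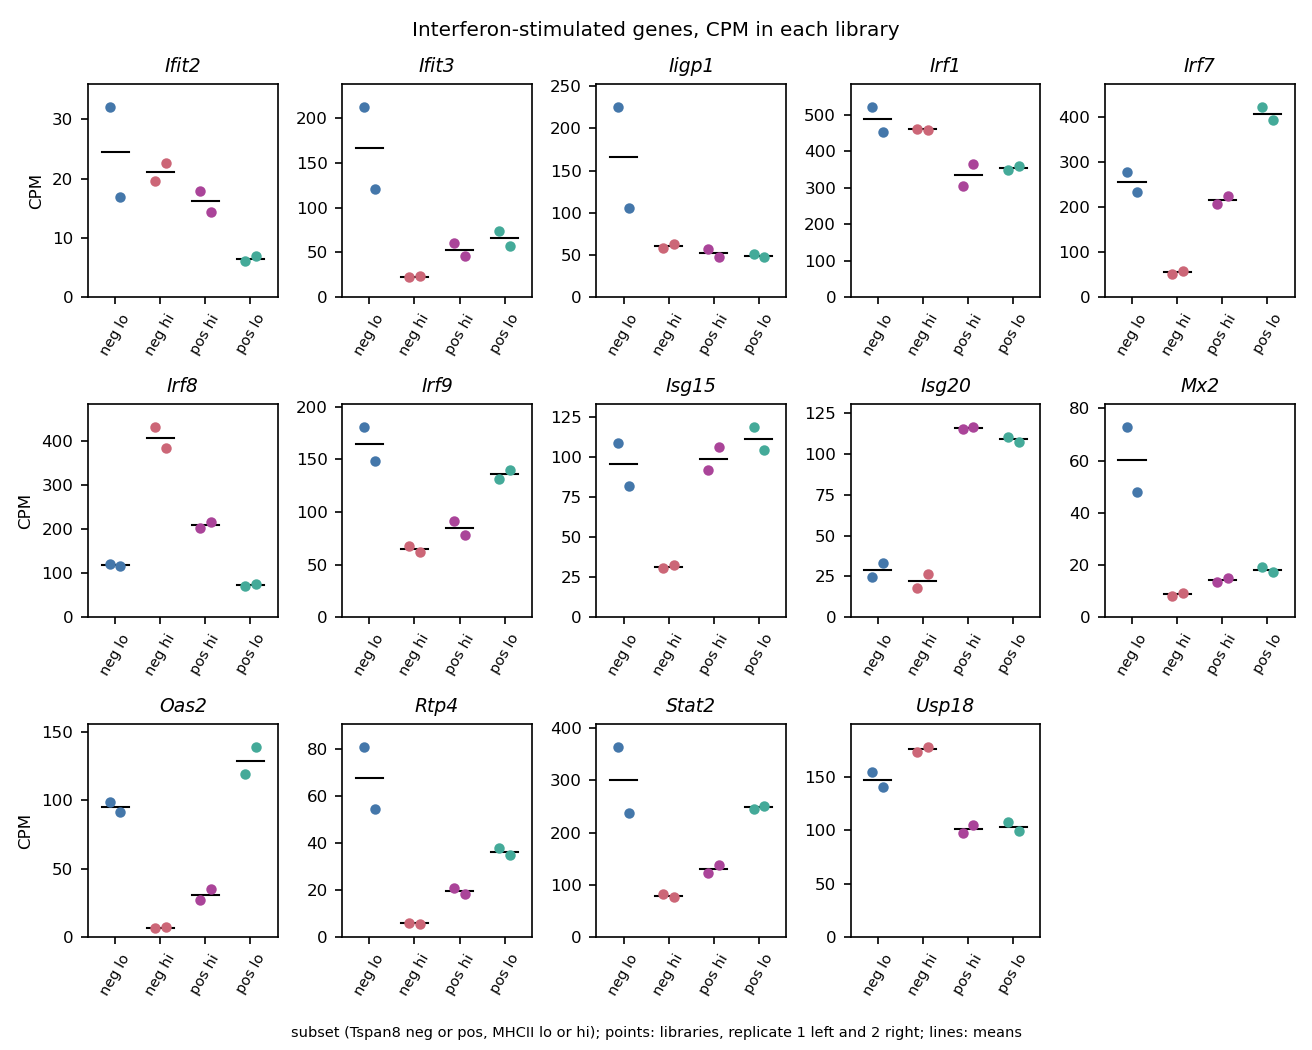
CPM (y axes, each from 0) of 14 of the genes in the 4 subsets (x axes), with a point for each library and a line at the mean of 2. Most panels have their lowest points in Tspan8negMHCIIhi (neg hi), Irf8 has its highest there, and Isg20 separates Tspan8pos from Tspan8neg subsets.

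Among the nucleic acid sensors, Ddx58, which encodes RIG-I, moved most. It fell from 154 and 96.9 CPM in Tspan8negMHCIIlo to 20.6 and 24.2 in Tspan8negMHCIIhi, a log2 fold change of -2.47 ± 0.22, and was at 49.8 and 48.0 in Tspan8posMHCIIhi and 80.8 and 94.1 in Tspan8posMHCIIlo. Its MHCII difference in Tspan8pos cells was -0.85 ± 0.21 and was not called. Ifih1, which encodes the related sensor MDA5, instead followed Tspan8, with 1.15 ± 0.17 in MHCIIhi and 0.70 ± 0.17 in MHCIIlo cells, of which the former was called, though not without replicate 1 of Tspan8negMHCIIhi. Zbp1, a sensor of Z-form nucleic acids, was at the fold limit in Tspan8neg cells (-1.0 ± 0.18) and lost its call under most alternatives. Dhx58, which encodes LGP2, had -0.84 ± 0.18 in the same contrast and was not called in any of the 4.

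The effectors directed at RNA showed the largest difference of all members. Oas2, a synthetase of the 2-5A messenger that activates RNase L, was at 98.9 and 91.5 CPM in Tspan8negMHCIIlo, 7.07 and 7.18 in Tspan8negMHCIIhi, 26.9 and 35.6 in Tspan8posMHCIIhi and 119 and 139 in Tspan8posMHCIIlo. The subsets did not overlap. The MHCII difference was -3.73 ± 0.19 in Tspan8neg (adjusted p = 5.9e-07) and -2.06 ± 0.17 in Tspan8pos cells (adjusted p = 2.09e-05). Oas2 was thus the member called lower in MHCIIhi cells on both sides of the Tspan8 gate. The other synthetases had smaller differences in Tspan8neg cells, -1.14 ± 0.17 for Oas1a and -1.25 ± 0.22 for Oas3, and neither was called in the other 3 contrasts of Tspan8 and MHCII. Eif2ak2, the RNA-dependent kinase PKR that halts translation, differed by -1.66 ± 0.25.

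Of the OAS-like genes, Oasl1 was called in the opposite direction, with 68.5 and 61.5 CPM in Tspan8negMHCIIlo, 163 and 166 in Tspan8negMHCIIhi, 253 and 247 in Tspan8posMHCIIhi and 159 and 123 in Tspan8posMHCIIlo. It rose with MHCII in Tspan8neg (1.34 ± 0.15) and with Tspan8 in MHCIIlo cells (1.11 ± 0.16), of which the latter call was lost without replicate 1 of Tspan8posMHCIIlo. Its product is known to restrain the translation of Irf7 mRNA. Oasl2 had -0.72 ± 0.19 with MHCII in Tspan8neg cells and was not called.

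The IFIT proteins bind foreign RNA ends, and their genes differed from each other. Ifit3 was at 212 and 120 CPM in Tspan8negMHCIIlo, 22.3 and 24.1 in Tspan8negMHCIIhi, 60.1 and 45.9 in Tspan8posMHCIIhi and 73.7 and 57.5 in Tspan8posMHCIIlo. Both replicates of Tspan8negMHCIIlo lay above all other libraries, although they differed from each other. The MHCII difference in Tspan8neg cells was -2.83 ± 0.26 (adjusted p = 1.45e-05), and the Tspan8 difference was -1.37 ± 0.25 in MHCIIlo and 1.19 ± 0.26 in MHCIIhi cells. The first Tspan8 call was lost without replicate 1 of Tspan8negMHCIIlo (-0.92) and without replicate 2 of Tspan8posMHCIIlo (adjusted p = 0.0344), and the second without either replicate of Tspan8negMHCIIhi (adjusted p = 0.0476 and 0.0386) or replicate 1 of Tspan8posMHCIIhi (adjusted p = 0.0465). Ifit2 was low, at 32.0 and 17.0, 19.5 and 22.7, 17.9 and 14.4, and 6.05 and 6.96 CPM in the same sequence of subsets. Of the 4 contrasts, it was called for Tspan8 in MHCIIlo cells (-1.86 ± 0.34, adjusted p = 0.00117), and not without replicate 2 of Tspan8posMHCIIlo (adjusted p = 0.0226). Ifit1, despite 3 ISRE matches in its promoter, was called in none of the 4 contrasts and had its highest values, 164 and 137 CPM, in Tspan8posMHCIIhi.

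Isg20, an exonuclease that degrades RNA, separated the Tspan8 gates. It was at 24.4 and 33.5 CPM in Tspan8negMHCIIlo, 17.7 and 26.5 in Tspan8negMHCIIhi, 115 and 116 in Tspan8posMHCIIhi and 110 and 107 in Tspan8posMHCIIlo. Every Tspan8pos library lay above every Tspan8neg library, and the MHCII levels overlapped within Tspan8neg. The Tspan8 difference was 1.90 ± 0.21 in MHCIIlo (adjusted p = 3.13e-05) and 2.36 ± 0.20 in MHCIIhi cells (adjusted p = 6.02e-06), and Isg20 was the member called higher in Tspan8pos cells at both MHCII levels.

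Among the membrane, nucleotide and Mx effectors, Mx2 stood out. Mx2, a dynamin-like antiviral GTPase that the annotation lists as a polymorphic pseudogene, was at 72.7 and 47.9 CPM in Tspan8negMHCIIlo, 8.11 and 9.48 in Tspan8negMHCIIhi, 13.5 and 15.0 in Tspan8posMHCIIhi and 19.2 and 17.2 in Tspan8posMHCIIlo. Its MHCII difference was -2.76 ± 0.24 in Tspan8neg cells (adjusted p = 9.76e-06) and its Tspan8 difference -1.74 ± 0.24 in MHCIIlo cells (adjusted p = 0.000164). The related Mx1 was called in none of the 4 contrasts, with estimates from 0.02 to 0.45. Bst2, which encodes tetherin, a tether of budding virus particles, differed by -1.26 ± 0.18 with MHCII in Tspan8neg cells. Rsad2, which encodes viperin, and its neighbour Cmpk2, a nucleotide kinase, were called in none of the 4 contrasts, in which their estimates lay between -0.38 and 0.12.

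The guanylate-binding proteins and immunity-related GTPases, which act at the vacuoles of intracellular pathogens and respond strongly to interferon gamma, had 6 of 7 genes called lower between the MHCII levels of Tspan8neg cells, and Igtp (-0.45 ± 0.15) was the gene not called. The count was 4 without either replicate of Tspan8negMHCIIhi and 5 without replicate 1 of Tspan8negMHCIIlo. The called estimates ran from -1.25 for Gbp7 to -2.30 for Irgm1. For Tspan8 in MHCIIhi cells none of the 7 was called by edgeR or DESeq2. At an unadjusted p under 0.05, for which no share of all genes is given, 3 were higher and 0 lower there. In MHCIIlo cells 4 of the 7 were called lower in Tspan8pos, namely Gbp2, Gbp3, Irgm1 and Iigp1. Without replicate 1 of Tspan8negMHCIIlo or replicate 1 of Tspan8posMHCIIlo, Iigp1 was the only one of these 4 still called, and without replicate 2 of Tspan8posMHCIIlo none was. Iigp1, an effector GTPase, was at 225 and 106 CPM in Tspan8negMHCIIlo, 58.2 and 63.6 in Tspan8negMHCIIhi, 57.6 and 47.5 in Tspan8posMHCIIhi and 51.1 and 47.4 in Tspan8posMHCIIlo. It was high in Tspan8negMHCIIlo alone, where the replicates differed by more than those of any other subset. Its difference was -1.76 ± 0.29 for Tspan8 in MHCIIlo (adjusted p = 0.000638) and -1.44 ± 0.28 for MHCII in Tspan8neg cells (adjusted p = 0.00167). Neither Tspan8 in MHCIIhi (-0.21 ± 0.28) nor MHCII in Tspan8pos cells (0.10 ± 0.29) gave a call for Iigp1. The MHCII call of Iigp1 was lost without replicate 1 of Tspan8negMHCIIlo (-0.81) and without either replicate of Tspan8negMHCIIhi (adjusted p = 0.0227 and 0.0186), and the Tspan8 call without replicate 2 of Tspan8posMHCIIlo (adjusted p = 0.0175).

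Of the remaining members, Rtp4, a Golgi chaperone of membrane receptors, was at 80.9 and 54.7 CPM in Tspan8negMHCIIlo, 6.03 and 5.77 in Tspan8negMHCIIhi, 21.1 and 18.3 in Tspan8posMHCIIhi and 37.9 and 34.9 in Tspan8posMHCIIlo. The subsets did not overlap. The MHCII difference in Tspan8neg cells was -3.52 ± 0.24 (adjusted p = 2.13e-06), the Tspan8 difference in MHCIIhi cells was 1.74 ± 0.25 (adjusted p = 0.000264), and the interaction of 2.64 ± 0.32 had the smallest adjusted p of the 39 (0.000777). Rtp4 shares exon sequence with Gm45338 on the same strand, as Gbp7 does with Gm43802 and Parp14 with Gm49730, so the counts of these 3 members are uncertain. Xaf1, an antagonist of an inhibitor of apoptosis, and Ifi44 differed by -2.54 ± 0.22 and -2.50 ± 0.33 with MHCII in Tspan8neg cells, and Parp14, an ADP-ribosyltransferase, by -1.54 ± 0.24. Ifi35 was not called in any of the 4 contrasts.

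Neighbouring ISGs on a chromosome did not always share a pattern. In the Ifit cluster on chromosome 19 (GRCm38, 34550694 to 34650009), the MHCII difference in Tspan8neg cells was -0.20 for Ifit2, -2.83 for Ifit3 and 0.35 for Ifit1, and in the Mx pair on chromosome 16 (97447035 to 97560900) it was 0.02 for Mx1 and -2.76 for Mx2. In the Oasl pair on chromosome 5 (114896936 to 114937915) it was -0.72 for Oasl2 and 1.34 for Oasl1. By contrast Gbp7, Gbp3 and Gbp2 on chromosome 3 (142530342 to 142638008) and Oas2, Oas3 and Oas1a on chromosome 5 (120730333 to 120907521) were all called lower. Differences between neighbours were not tested, and as the Ifit, Oas, Gbp, Mx and immunity-related GTPase genes belong to families of similar sequence, reads may have been split between copies. Igtp and Irgm2 share exons on the same strand, and their counts are uncertain for that reason as well.

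Levels of different members can be compared only per exon length, and only roughly. The length covers exons of all annotated transcripts of a gene, which can exceed the transcript expressed and lower the value. As CPM per kilobase of exon, averaged over the 8 libraries, Isg15 (112) and Irf1 (103) were the most abundant members, followed by Bst2 (73.1), Oasl2 (68.6) and Irf7 (61.7), and Ifi44 (3.02) and Ifit2 (4.35) the least. In Tspan8negMHCIIhi Irf1 was at 115 and Isg15 at 41.8 CPM per kilobase, whereas in Tspan8posMHCIIlo Isg15 was at 147, Irf7 at 108 and Irf1 at 89.0.

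Upstream of these genes, the interferons themselves showed a different pattern. Of 53 pathway genes listed by role, 38 had a row and 33 were tested. Of 21 listed interferon genes, Ifnl2 and Ifnl3, which encode interferon lambda, were the ones with enough counts for the test, Ifnb1, Ifna4, Ifnz and Ifng did not exceed 2.36 CPM in any library, and the other 15 were not analysed here. Ifnl2 had 0 and 0.707 CPM in Tspan8negMHCIIlo, 12.9 and 11.2 in Tspan8negMHCIIhi, 11.4 and 7.92 in Tspan8posMHCIIhi and 6.05 and 4.37 in Tspan8posMHCIIlo. The interferon lambda genes were thus near 0 in the subset in which most ISGs were highest. The 149 counts of Tspan8negMHCIIhi against 3 in Tspan8negMHCIIlo gave an Ifnl2 ratio of 30.7 (95% interval 10.3 to 151, counting error only). Ifnl3 had no count in Tspan8negMHCIIlo and 5.82 and 3.08 CPM in Tspan8negMHCIIhi, at least 5.74-fold higher than a floor of 3 counts in each Tspan8negMHCIIlo library. Both genes were called for MHCII in Tspan8neg cells (adjusted p = 0.000144 and 0.000864) and for Tspan8 in MHCIIlo cells (adjusted p = 0.00227 and 0.0016). They are near-identical copies, so the split of reads between them is uncertain.

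Receptor genes in part followed the ISGs. Ifnlr1, the specific chain of the interferon lambda receptor, was at 32.3 and 17.7 CPM in Tspan8negMHCIIlo, 4.37 and 3.72 in Tspan8negMHCIIhi, 10.4 and 7.31 in Tspan8posMHCIIhi and 26.4 and 20.5 in Tspan8posMHCIIlo. Both MHCIIlo subsets lay above both MHCIIhi subsets, with a called difference of -2.63 ± 0.35 in Tspan8neg cells. Ifngr1 (-1.83 ± 0.19) and Ifnar2 (-1.14 ± 0.19) were also called lower in that contrast, and Ifnar1, Ifngr2 and Il10rb were not called. Of the genes of signal transduction, Jak1, Jak2, Tyk2 and Stat3 were called in none of the 4 contrasts by edgeR or DESeq2. At an unadjusted p under 0.05, 1 of these 4 was lower for Tspan8 in MHCIIlo and 3 in MHCIIhi cells, 0 were lower for MHCII in Tspan8neg or Tspan8pos cells, and 0 were higher in any. The share of all genes at that limit is not given.

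**Figure D5:**
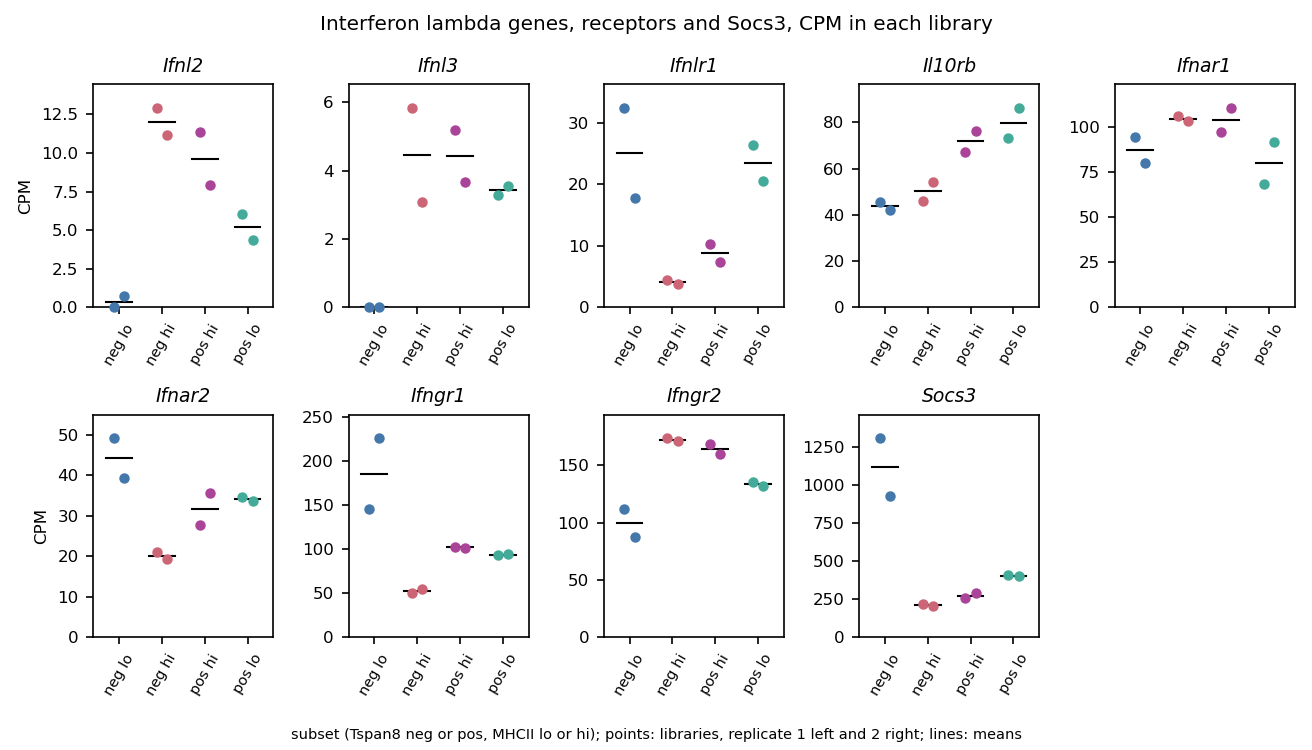
CPM (y axes, each from 0) of the interferon lambda genes, 6 receptor chains and Socs3 in the 4 subsets (x axes), with a point for each library and a line at the mean of 2. Ifnl2 and Ifnl3 are at or near 0 in Tspan8negMHCIIlo (neg lo), where Ifnlr1, Ifngr1 and Socs3 are high.

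Among negative regulators, Socs3, an inhibitor of Jak kinases, was at 1304 and 928 CPM in Tspan8negMHCIIlo, 217 and 204 in Tspan8negMHCIIhi, 258 and 290 in Tspan8posMHCIIhi and 406 and 404 in Tspan8posMHCIIlo. It was called lower with MHCII in Tspan8neg (-2.40 ± 0.17) and with Tspan8 in MHCIIlo cells (-1.46 ± 0.16). Socs1, an inhibitor of the same kinases, was not called. The interferon regulatory factor Irf4 rose with MHCII in Tspan8neg (2.14 ± 0.15) and in Tspan8pos cells (2.35 ± 0.18), like Irf8, and Irf5 rose in Tspan8neg cells (1.93 ± 0.18), whereas Irf3, at the fold limit there (-1.01 ± 0.16), was called lower by edgeR and not by DESeq2. Of the sensors and adaptors, Tlr9 rose (3.15 ± 0.32) and Myd88 fell (-1.40 ± 0.18) with MHCII in Tspan8neg cells. Over the 33 pathway genes tested, 5 were called higher (15.2%, against 13.1% of all genes) and 8 lower (24.2%, against 9.67%) with MHCII in Tspan8neg cells. They numbered 2 and 1 with MHCII in Tspan8pos cells (6.06% and 3.03%, against 4.59% and 2.62%), and 3 and 2 with Tspan8 in MHCIIlo cells (9.09% and 6.06%, against 12.1% and 9.34%). With Tspan8 in MHCIIhi cells they numbered 4 and 2 (12.1% and 6.06%, against 11.0% and 7.45%), and in the interaction 3 and 1 (9.09% and 3.03%, against 2.24% and 2.36%). The median in the contrast where the ISGs differed most was 0.02, against -1.25 for the ISGs.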

How the data were processed

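The authors sorted mTECs into 4 subsets by FACS and sequenced RNA from 2 biological replicates of each. The deposited table holds estimated counts per gene and library, which the authors obtained with Salmon 1.8.0 on the Gencode vM10 mouse transcriptome, listed with mm10 and DESeq2 1.30.0 in the submitters' processing notes. The values are whole numbers without normalization, and the step that summed transcripts to genes and rounded them is not given in the sources used here. The methods describe amplified cDNA and tagmentation whereas the labels name a stranded mRNA kit, so whether counting used the strand is not settled. Of 25466 gene identifiers, 25336 were paired with a symbol through the GRCm38 annotation.

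Counts were fitted with edgeR 4.0.16 in R 4.3.3 (filterByExpr on the subsets, TMM, a mean per subset, quasi-likelihood F-test, two-sided) over all 8 libraries, and p-values were adjusted by Benjamini-Hochberg over the 17006 genes tested. The SE was taken from the log2 fold change and its F statistic, as the ratio of the former to the root of the latter. Tested were Tspan8 within each MHCII level, MHCII within each Tspan8 level, their interaction and the pairs of subsets that differ in both markers. The contrasts share libraries, and no correlation between them was computed. An exact permutation test of 2 against 2 libraries cannot reach 0.05 and was not used. The biological coefficient of variation was 15.5%. Library totals ranged from 1941518 to 7783841 counts, and intervals and the floor of 3 counts cover counting error only. Replicates differed by more than counting noise, so all were kept as separate samples. The fit was tested on simulated data with the same spread for every gene and subset. Only the MHCII contrast in Tspan8neg cells was checked there, and not the interaction.

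Values in every library are given for 14 members: Isg15, Usp18, Stat2, Irf9, Irf1, Irf7 and Irf8, the 3 called members with the largest fold change in each contrast among those that averaged 10 CPM or more, and, for the interaction, the 5 called members of lowest adjusted p. Values of Ddx58, Oasl1 and single pathway genes were added after their values were seen. The members, the pathway and marker lists and the tests were chosen with earlier results of these data known. A pathway gene is not reported here. Promoter windows were those of RefSeq for GRCm38.p6. Alternatives were DESeq2 1.42.0, its size factors, 2 other filters on low counts, fits limited to the libraries compared, a replicate block, other thresholds, subsampling of all libraries to the depth of the smallest, and leaving out each library in turn.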

Additional observations from a re-analysis of the deposited data

Results flagged for a closer look

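For 10 of the 39 genes the Tspan8 fold change differed between MHCIIhi and MHCIIlo mTECs by the test of the difference itself, the interaction term of the edgeR fit. On the log2 scale the difference was 2.64 for Rtp4, 2.55 for Ifit3, 2.43 for Mx2, 1.94 for Irgm1, 1.87 for Xaf1, 1.81 for Gbp2, 1.68 for Oas2, 1.62 for Ddx58, 1.43 for Isg15 and 1.28 for Irf7. A positive value means that the ratio of Tspan8pos to Tspan8neg cells was higher in MHCIIhi than in MHCIIlo cells. Rtp4 was the one called without each single library in turn, and each of the other 9 lost its call in at least 4 of these 8 fits.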

How the results depend on the processing

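No called member changed sign under any alternative. Shares of all genes called are not given for the alternatives. A changed count is therefore not shown to be particular to the members or pathway genes. Dropping the fold limit raised the members called from 10 to 16 for Tspan8 in MHCIIlo, from 9 to 14 for Tspan8 in MHCIIhi, from 2 to 6 for MHCII in Tspan8pos cells and from 16 to 25 for Tspan8posMHCIIhi against Tspan8negMHCIIlo, and the pathway genes for Tspan8 in MHCIIlo from 5 to 12. These were 8 after thinning, and 7 pathway genes had an interaction at an adjusted p under 0.05. Leaving out 1 library at a time gave 3 to 11 members for Tspan8 in MHCIIlo, 5 to 9 for Tspan8 in MHCIIhi, 20 to 27 for MHCII in Tspan8neg, 2 to 3 for MHCII in Tspan8pos cells, 1 to 19 for the interaction, 12 to 21 for Tspan8posMHCIIlo against Tspan8negMHCIIhi and 12 to 19 for Tspan8posMHCIIhi against Tspan8negMHCIIlo. For pathway genes the ranges were 4 to 7, 3 to 8, 10 to 13, 2 to 4 and 1 to 7 in the first 5 of these. A subset left with 1 library was assumed to vary like the others, and the cause was not tested. The small library of 1941518 counts and 2 libraries a subset limit the precision.

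Reversals were of uncalled values under the fold limit. Those of Ifit2 and Stat2 arose without replicate 1 of Tspan8negMHCIIlo, and their ranges reached further from 0 than those of Irf1 and Usp18. Irf1 with MHCII in Tspan8neg cells came to 0.0007 with DESeq2's test, 0.0034 after thinning and -0.1894 to 0.0103 without single libraries, and in Tspan8pos cells to -0.2136 to 0.0640 without single libraries. The Irf1 interaction was -0.0647 with DESeq2's test, -0.0605 with its size factors, -0.0608 without the filter, -0.0368 with 10 counts in 4 libraries, -0.0851 after thinning and -0.1243 to 0.1541 without single libraries. Usp18 with MHCII in Tspan8pos cells was 0.0276 after thinning and -0.0917 to 0.0482 without single libraries. Without single libraries, Ifit2 with MHCII in Tspan8neg cells was -0.6024 to 0.3138, Iigp1 with MHCII in Tspan8pos cells -0.0180 to 0.2361 and Stat2 with Tspan8 in MHCIIlo cells -0.5473 to 0.0569. Omitting the filter moved the median of all genes by up to 0.21 on the log2 scale.

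Zbp1 lost its call with DESeq2's test, its size factors, both other filters, thinning and the fit on the libraries of the contrast. That last fit also lost Gbp2, Ifi44 and Irgm1 for Tspan8 in MHCIIlo and Iigp1 for MHCII in Tspan8neg cells. Thinning lost the interactions of Rtp4, Ddx58 and Gbp2. Replicate numbers are not shown to pair the libraries, since deviations of libraries with the same number correlated at 0.00402 to 0.0924. With the number as a replicate block, 10, 9, 25 and 2 members were called in the 4 contrasts and 12 in the interaction, those called without the block included, and 15 of the 16 called members of Tspan8posMHCIIhi against Tspan8negMHCIIlo kept their call.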
